A study of Mus musculus with 8 samples.

Results

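The genes described here, measured in single nuclei of the mouse brain, are Cacna2d3, Adamtsl3, Cadps, Deptor, Robo1, Slc50a1, A330072L02Rik and A530053G22Rik. They were selected for large changes with loss of Cnp in mature oligodendrocytes (MOL), and are 8 of 32285 genes in the count table. Brain hemispheres of C57BL6/J mice aged 6 months, with the olfactory bulb and cerebellum taken off, gave 8 libraries of nuclei, 2 per genotype. WT mice carried neither change. Cnp-/- mice lacked 2′,3′-cyclic nucleotide 3′-phosphodiesterase, an enzyme of non-compact myelin. 5xFAD mice carried transgenes for mutant human amyloid precursor protein and presenilin, driven in neurons, and had an intact Cnp gene. Cnp-/-;5xFAD mice carried both. The study's reporting summary describes a single-cell replicate as a pool of animals, while its methods name pooling only for another dataset, so a library may hold more than 1 mouse and p-values measure the spread between libraries. Of 61949 nuclei, the authors' annotation placed 5612 in MOL, 465 in newly formed oligodendrocytes (NFOL) and 1522 in oligodendrocyte precursor cells (OPC), and the question was at which lineage stage, and in which other classes, the 8 genes differed. Because the genes were selected on the comparison of Cnp genotypes in MOL, their values there are a description. Adjusted p-values of the 8 genes are given only for other classes and for 5xFAD. Calls of the 8 in MOL are counted only to describe the selection and how it depends on processing.

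Oligodendrocytes arise from precursor cells that divide, leave the cell cycle, pass through a newly formed stage and then wrap axons with myelin. Genes used by the precursor are shut down along this path while the myelin genes rise, so the level of a gene in OPC, NFOL and MOL places it in the lineage. The 8 genes have unlike roles. Cacna2d3 encodes an auxiliary alpha2delta subunit of voltage-gated calcium channels. Cadps encodes a priming factor for dense-core vesicle release. Adamtsl3 encodes a secreted matrix protein related to the ADAMTS proteases but without protease activity. Robo1 is a receptor for the Slit guidance cues, Deptor binds and restrains the growth kinase mTOR, and Slc50a1 is a sugar transporter. A530053G22Rik is a non-coding transcript. A330072L02Rik is named only by its symbol.

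The annotation gave positions for 7 of the 8 genes on GRCm38. Cacna2d3 (chr14:28904943-29721864, minus strand) and Cadps (chr14:12372563-12823079, minus strand) lie on chromosome 14. Adamtsl3 lies at chr7:82335694-82614450 on the plus strand, Deptor at chr15:55112317-55259271 on the plus strand, Robo1 at chr16:72308306-73046095 on the plus strand and Slc50a1 at chr3:89268246-89270570 on the minus strand. A530053G22Rik lies at chr6:60279043-60403707 on the minus strand. None of the 7 is on chromosome 11, where Cnp lies. The genes differ in size, with Cacna2d3 spanning 817 kb and Slc50a1 2.33 kb.

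The RefSeq promoter table (GRCm38.p6) held 6 of the 8 genes. The 250 bases before the start of transcription are shown for 2 genes that were higher with Cnp loss in MOL, Cacna2d3 (chr14:29721865-29722114, minus strand) and Adamtsl3 (chr7:82335444-82335693, plus strand), and for 2 that were lower, Slc50a1 (chr3:89270571-89270820, minus strand) and A530053G22Rik (chr6:60403708-60403957, minus strand). These pairs were picked because they differ in base composition, so that difference does not describe the higher and lower genes as sets. Sequences run 5′ to 3′ on the gene's strand. Capitals mark matches, on either strand, to the letters ACAAAG (a SOX core), CAGCTG (an E-box), GGGCGG (a GC box) or TATAAA, and none of these matches overlapped.
Cacna2d3: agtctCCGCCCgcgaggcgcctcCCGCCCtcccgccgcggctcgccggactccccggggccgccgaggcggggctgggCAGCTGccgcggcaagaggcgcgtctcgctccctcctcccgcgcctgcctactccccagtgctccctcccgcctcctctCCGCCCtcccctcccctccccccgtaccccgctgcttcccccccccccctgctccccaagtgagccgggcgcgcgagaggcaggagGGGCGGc
Adamtsl3: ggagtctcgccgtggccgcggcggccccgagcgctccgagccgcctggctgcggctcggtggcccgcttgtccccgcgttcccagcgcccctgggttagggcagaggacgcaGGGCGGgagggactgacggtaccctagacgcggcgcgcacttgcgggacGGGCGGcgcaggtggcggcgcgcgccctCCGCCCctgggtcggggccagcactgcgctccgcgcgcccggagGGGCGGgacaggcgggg
Slc50a1: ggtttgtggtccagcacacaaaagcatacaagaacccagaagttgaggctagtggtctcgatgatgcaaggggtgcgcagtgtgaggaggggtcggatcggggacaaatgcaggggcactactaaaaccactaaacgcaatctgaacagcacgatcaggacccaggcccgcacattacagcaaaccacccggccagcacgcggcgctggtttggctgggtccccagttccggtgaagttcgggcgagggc
A530053G22Rik: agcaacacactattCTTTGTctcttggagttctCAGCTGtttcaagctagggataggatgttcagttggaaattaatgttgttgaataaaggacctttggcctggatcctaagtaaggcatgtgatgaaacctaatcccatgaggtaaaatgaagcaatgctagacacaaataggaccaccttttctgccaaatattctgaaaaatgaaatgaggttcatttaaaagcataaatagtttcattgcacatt
The sequences before Cacna2d3 and Adamtsl3 were each 80.0% G and C, a share higher than in 98.8% of 32817 mouse promoters, and each held 4 GC boxes. GGGCGG occurred in 32.7% of all promoters of the same length. The sequence before A530053G22Rik was 36.8% G and C, with no CG pair, and held 1 SOX core match and 1 E-box match, letters that occurred in 16.5% and 13.0% of all promoters. Cacna2d3 also held 1 E-box match. None of the 4 motifs was found before Slc50a1, Cadps or Robo1 (the RefSeq start of Robo1 lies inside the annotated gene), whose sequences were between 56.0% and 58.4% G and C. Of these, Cadps (58.0%) was higher with Cnp loss in MOL, and Slc50a1 (58.4%) and Robo1 (56.0%) were lower. TATAAA, found in 12.4% of all promoters, was before none of the 6. Such matches describe letters and no binding was measured.

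The labels held in MOL for the targeted gene. The level of Cnp, in UMIs scaled to library size, was 283 and 321 CPM (the UMIs of a gene for every 1000000 UMIs summed over the nuclei of a class in a library) in WT and 219 and 265 CPM in 5xFAD, against 23.1 and 23.2 CPM in Cnp-/- and 24.0 and 32.8 CPM in Cnp-/-;5xFAD. Each library gave 444 to 1018 MOL nuclei and 819922 to 1801866 UMIs in MOL, with a median of 1108 to 2020 UMIs per nucleus. The 8 MOL markers summed to 15599 to 17989 CPM in the libraries with Cnp and to 14970 to 18473 CPM in those without. The 10 neuron markers in MOL summed to 8.96 to 179 CPM with Cnp and to 1.03 to 35.6 CPM without, with up to 9 of 10 at 0 in a library, and WT replicate 1 was the highest. The 6 OPC markers in MOL summed to 6.04 to 64.9 CPM with Cnp and to 14.1 to 32.9 CPM without, ranges that overlapped, with 3 of 6 at 0 in WT replicate 1 and Pdgfra, a defining precursor receptor, at no more than 1.22 CPM. The 6 astrocyte markers in MOL moved with Cnp, at 238 to 338 CPM with it and 202 to 235 CPM without, with up to 4 of 6 at 0 in a library and Slc1a3 making up most of the sum. Of the NFOL markers, which summed to 1268 to 1400 CPM with Cnp and 1187 to 1349 CPM without, 1 of 5 tested in MOL passed the threshold. This was Enpp6, a phosphodiesterase gene of newly formed oligodendrocytes, at 155 to 196 CPM with Cnp and 46.2 to 63.4 CPM without (log2 fold change -1.67). The part of these markers in the values of the 8 genes was not tested. Pairs of libraries shared 9 to 28 cell barcodes.

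Cacna2d3, Adamtsl3 and Cadps were higher in MOL of every library without Cnp than in any library with it, and with Cnp intact all 3 had their highest class mean in neurons or OPC. Cacna2d3 was nearly absent from MOL with Cnp. It had 0 and 12.7 CPM in WT and 0.555 and 0 CPM in 5xFAD, against 51.2 and 31.7 CPM in Cnp-/- and 142 and 183 CPM in Cnp-/-;5xFAD. The highest values thus stood in both libraries that combined Cnp loss with 5xFAD, and the libraries without Cnp did not overlap those with it, among which 5xFAD lay within the WT range. The 460 UMIs without Cnp against 13 with it, out of totals of 4645539 and 4799575, gave a ratio of 36.6, with an exact 95% interval of 21.2 to 69.2 that covers counting error only. The fitted log2 fold change was 5.67 (SE 0.84), first among 8761 genes by size of increase. It was 8.61 without WT replicate 2, which held 12 of the 13 UMIs, and a gene near 0 has a fitted value that rests on the prior count. Within backgrounds it was 2.85 (SE 0.98) for Cnp-/- against WT and 8.49 (SE 1.35) for Cnp-/-;5xFAD against 5xFAD.

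Adamtsl3 was at 0.863 and 1.06 CPM in the WT libraries, 1 UMI in each. In 5xFAD it was at 26.6 and 22.4 CPM, in Cnp-/- at 60.9 and 128 CPM, and in Cnp-/-;5xFAD at 90.1 and 102 CPM. The levels therefore stepped up from WT to 5xFAD to the libraries without Cnp, with no overlap between these 3 sets. The fitted log2 fold change with Cnp loss was 4.29 (SE 0.39), with 6.56 (SE 0.64) against WT and 2.02 (SE 0.43) against 5xFAD.

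Cadps was the best counted of these 3 genes, with 233 UMIs with Cnp and 1302 without. It was at 56.1 and 68.7 CPM in WT, 36.1 and 42.5 CPM in 5xFAD, 175 and 198 CPM in Cnp-/- and 487 and 269.8 CPM in Cnp-/-;5xFAD. Means were 50.9 ± 14.5 CPM with Cnp and 282 ± 142 CPM without (SD, n = 4 libraries each), and the fitted log2 fold change was 2.50 (SE 0.22). Cadps is a gene of neurons, at 1067 to 1200 CPM there with Cnp. In MOL nuclei with no UMI of 9 neuron markers (Meg3 was left out), the log2 fold change of Cadps was 2.67 and that of Cacna2d3 was 5.62. That step kept 441 to 1016 nuclei per library, a range close to the 444 to 1018 of all MOL nuclei, and is a weak check. The part of RNA from neurons in these values was not tested.

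**Figure D1:**
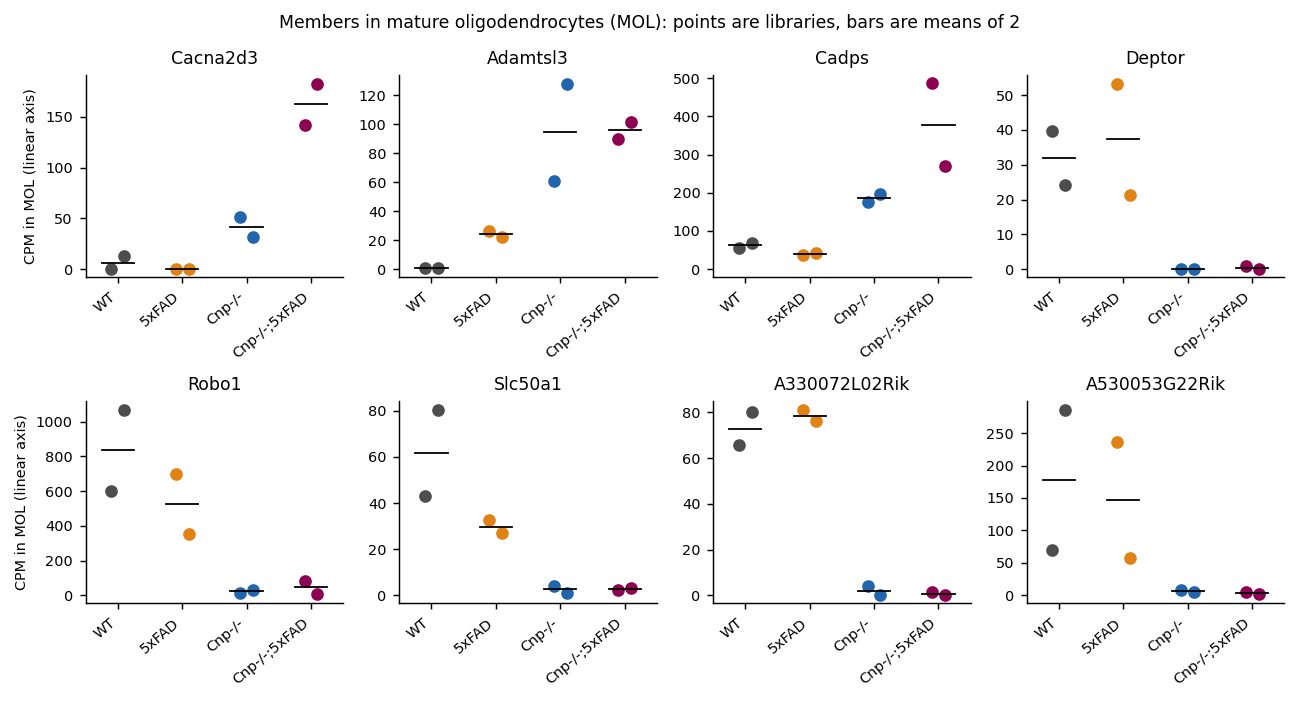
CPM of the 8 genes in MOL on linear axes, 1 panel per gene. Points are libraries, coloured by genotype, and bars are means of 2 libraries. Cacna2d3, Adamtsl3 and Cadps lie higher in both genotypes without Cnp, and the other genes lie near 0 there, with Robo1 highest at 84.3 CPM in Cnp-/-;5xFAD replicate 1.

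The other 5 genes were lower in MOL of every library without Cnp. Deptor, the mTOR inhibitor, had 1 UMI there. It was at 39.7 and 24.3 CPM in WT and 53.3 and 21.3 CPM in 5xFAD, and at 0 and 0 CPM in Cnp-/- and 0.827 and 0 CPM in Cnp-/-;5xFAD. That is 184 UMIs against 1, a ratio of 178 with an exact 95% counting interval of 31.6 to 7072. A value of 0 is a count after the authors removed ambient RNA.

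Robo1, the Slit receptor, had 3284 UMIs in MOL with Cnp and 164 without. It was at 603 and 1066 CPM in WT and 699.8 and 353 CPM in 5xFAD, against 15.8 and 32.9 CPM in Cnp-/- and 84.3 and 9.23 CPM in Cnp-/-;5xFAD. The lowest library with Cnp, 5xFAD replicate 2, was still above the highest without it. The fitted log2 fold change was -4.25 (SE 0.59), and -5.42 without Cnp-/-;5xFAD replicate 1.

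Slc50a1, the sugar transporter, was at 43.2 and 80.3 CPM in WT and 32.7 and 26.9 CPM in 5xFAD. It was at 4.26 and 1.22 CPM in Cnp-/- and 2.48 and 3.08 CPM in Cnp-/-;5xFAD, all below the lowest library with Cnp. The log2 fold change was -3.79 (SE 0.49).

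Of the remaining pair, A330072L02Rik was the steadier in the libraries with Cnp. It was at 65.6 and 80.3 CPM in WT and 81.0 and 76.1 CPM in 5xFAD, a mean of 75.8 ± 7.11 CPM (SD, n = 4), and at 4.26 and 0 CPM in Cnp-/- and 1.65 and 0 CPM in Cnp-/-;5xFAD. The non-coding A530053G22Rik was at 69.9 and 285 CPM in WT and 236 and 58.2 CPM in 5xFAD. It was at 7.92 and 4.88 CPM in Cnp-/- and 5.79 and 2.05 CPM in Cnp-/-;5xFAD. Its libraries with Cnp thus differed more among themselves than those of A330072L02Rik did. The ratios of summed counts, with Cnp over without, were 39.4 (exact 95% counting interval 20.5 to 86.8) for A330072L02Rik and 30.9 (20.9 to 47.5) for A530053G22Rik. These intervals treat each UMI as independent and leave out the spread between nuclei and libraries. With Cnp, the 366 UMIs of A330072L02Rik lay in 186 of 2662 MOL nuclei and the 829 of A530053G22Rik in 194. The fitted log2 fold change of A330072L02Rik was -5.47 (SE 0.68), and -7.77 without Cnp-/- replicate 1, which held most of its UMIs without Cnp.

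All 8 genes passed the filter on low counts in MOL. There, edgeR called 67 of 8761 genes with Cnp loss, 0.765%, at an adjusted p below 0.05, and all 8 were among these by choice. None of the 8 was called without 5xFAD replicate 1 (3 genes called in all) or without 5xFAD replicate 2 (2 genes), and 2 to 7 of the 8 were called without any 1 of the other libraries. Libraries with Cnp loss lay wholly above the others for 3.96% of genes and wholly below for 5.94%, and the 3 and 5 genes described here are among those for the same reason. The median log2 fold change over all genes tested was -0.03. By size of change among all 8761 genes tested, Cadps stood 65th by increase and Slc50a1 97th by decrease, ranks that the selection fixes in part.

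Shares of nuclei, which come from the MOL counts used to select the genes, separated the libraries the same way for all 8 genes. This is no second line of support, and the share of all genes that separate so was not worked out. MOL nuclei were thinned to a common 825 UMIs, and the 559 of 5612 that had fewer were dropped. Robo1 was seen in 46.1% of thinned MOL nuclei in WT replicate 2, the highest, and 18.9% in 5xFAD replicate 2, the lowest with Cnp, against 0.353% to 4.08% in the libraries without Cnp. Cadps was seen in 2.34% to 4.40% with Cnp and in 11.95% to 31.1% without. Cacna2d3 was seen in 2.96% and 2.41% of nuclei in Cnp-/- and in 11.9% and 13.4% in Cnp-/-;5xFAD, against at most 1.16% with Cnp. A smaller share of MOL nuclei held a UMI of the other genes, at most 8.85% for Adamtsl3 and 8.56% for A530053G22Rik. Means over libraries were 2.87% with Cnp and 0% without for Deptor, 3.95% and 0.134% for Slc50a1, and 4.03% and 0.0296% for A330072L02Rik. Without thinning, Cadps was in 28.1% (Wilson 95% interval 26.5% to 29.8%) of 2950 MOL nuclei without Cnp and 6.54% (5.66% to 7.54%) of 2662 with it. Among astrocyte nuclei the unthinned share without Cnp was 4.17%. For a class that holds little of these genes, thinned astrocyte nuclei had a UMI of Cadps in 1.53% and of Cacna2d3 in 0.191% without Cnp. The Cadps share came mostly from Cnp-/-;5xFAD replicate 1, at 5.59%, with 0.156% to 0.511% in the other 3 libraries, and all 4 nuclei with Cacna2d3 were of that library. The thinned shares in MOL without Cnp, 19.0% and 7.43%, were above these. A330072L02Rik had a UMI in 0 of 774 OPC nuclei with Cnp, which allows a share of up to 0.388% of nuclei with a UMI (3 counts of the total) and sets no limit on nuclei that express the gene. Intervals and limits cover counting error only.

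**Figure D2:**
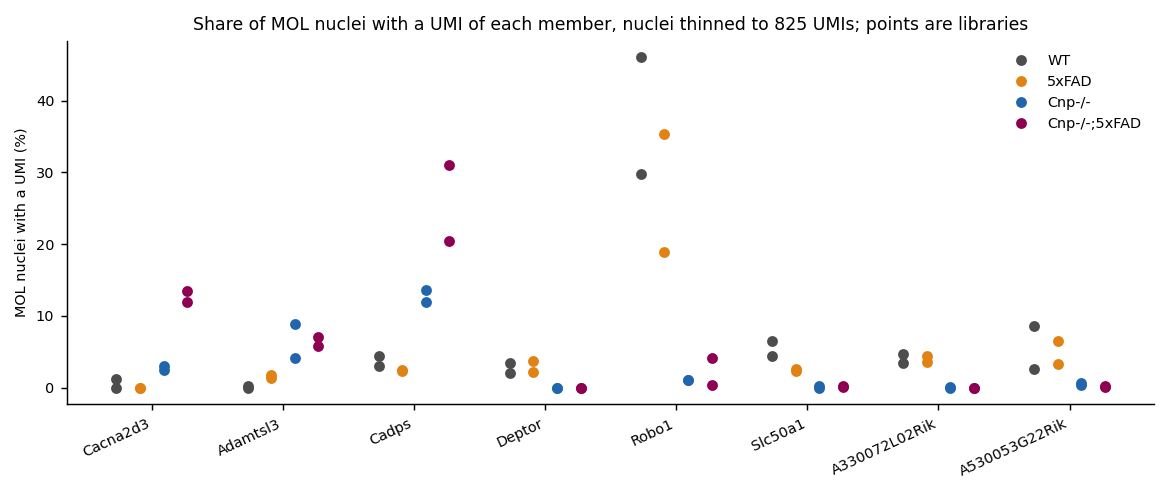
Percentage of MOL nuclei with at least 1 UMI of each gene after thinning every nucleus to 825 UMIs. Points are libraries, coloured by genotype. Robo1 reaches 46.1% in WT replicate 2 and Cadps reaches 31.1% in Cnp-/-;5xFAD replicate 1.

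Cadps was seen more often in nuclei with Cacna2d3 than in those without it in each of the 4 libraries without Cnp, by margins that differed between libraries. Among thinned MOL nuclei of Cnp-/-;5xFAD replicate 1, Cadps was in 31.6% of the 76 nuclei with Cacna2d3 and in 31.0% of those without. In replicate 2 the shares were 22.4% of 76 and 20.2%. In Cnp-/- replicate 1 they were 32.0% of 25 nuclei and 11.3%, and in replicate 2 16.7% of 12 nuclei and 13.6%. Adamtsl3 was in 10.53% and 5.26% of the nuclei with Cacna2d3 in the Cnp-/-;5xFAD libraries, against 5.17% and 7.35% of those without. In the Cnp-/- libraries it was in 8.0% and 8.33% of the nuclei with Cacna2d3, against 4.02% and 8.87%. The share of Adamtsl3 was thus higher in replicate 1 and lower in replicate 2 of both genotypes. The nuclei with Cacna2d3 were few, nuclei of 1 library are not replicates, and no test was made.

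Along the lineage with Cnp intact, the 3 higher genes had their highest mean of the 3 stages in OPC. Cacna2d3 averaged 379 ± 43.1 CPM in OPC, 162 ± 107 in NFOL and 3.31 ± 6.25 in MOL over the 4 libraries of WT and 5xFAD (SD). Cadps averaged 601 ± 31.0, 270.1 ± 39.5 and 50.9 ± 14.5 CPM. Adamtsl3 averaged 47.9 ± 19.4, 31.8 ± 19.0 and 12.7 ± 13.7 CPM, and its OPC range, 22.8 to 69.1 CPM, overlapped those of NFOL and MOL. Without Cnp, Adamtsl3 was instead higher in MOL, at 60.9 to 128 CPM, than in OPC, at 34.8 to 51.6 CPM. Cacna2d3 averaged 359, 187 and 102 CPM over the 3 stages without Cnp and Cadps 604, 326 and 282 CPM. Cadps in MOL without Cnp, at 175 to 487 CPM, thus overlapped its range in NFOL, 305 to 368 CPM.

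The lower genes did not share a pattern along the lineage. A330072L02Rik and A530053G22Rik were genes of the mature stage. A330072L02Rik had 0 UMIs in OPC, 15.0 ± 8.75 CPM in NFOL and 75.8 ± 7.11 CPM in MOL with Cnp. A530053G22Rik had 0.404 ± 0.809, 20.8 ± 13.6 and 162 ± 115 CPM. Deptor was also higher in later stages, from 8.70 ± 2.21 CPM in OPC to 22.1 ± 10.8 in NFOL and 34.6 ± 14.8 in MOL, and its OPC range did not reach its MOL range. Robo1 and Slc50a1 were carried through all 3 stages. Robo1 averaged 960 ± 129, 523 ± 116 and 681 ± 296 CPM, and Slc50a1 37.9 ± 16.9, 48.1 ± 12.9 and 45.8 ± 24.0 CPM. Since the authors set the classes from the same counts, levels are compared between classes with no test.

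Across all 8 classes with Cnp intact, Cadps was ordered most clearly. Neurons (1127 ± 64.8 CPM), OPC, NFOL, endothelial cells (151.7 ± 40.2 CPM) and MOL stood apart from one another, and MOL overlapped pericytes and microglia. Cacna2d3 was highest in neurons (777 ± 196 CPM) and OPC, which stood apart, followed by NFOL and endothelial cells (115 ± 90.5 CPM), which overlapped, and MOL was last of the 8 classes. Adamtsl3 had no neighbouring classes that stood apart. Robo1 ran from neurons (978 ± 192 CPM) to OPC, MOL and NFOL by mean, and each of these overlapped the next. Its NFOL range, 441 to 689 CPM, lay below the ranges of neurons (789 to 1208 CPM) and OPC (843 to 1122 CPM). The wide MOL range, 353 to 1066 CPM, overlapped all of these. Robo1 was lower in endothelial cells, pericytes, astrocytes and microglia, at 69.8 to 144 CPM on average. Deptor had its highest mean in microglia (58.0 ± 27.5 CPM) and neurons (41.2 ± 5.39 CPM), and Slc50a1 in endothelial cells (110 ± 19.3 CPM) and pericytes (96.3 ± 76.0 CPM), each overlapping its neighbour. A330072L02Rik and A530053G22Rik were the only 2 of the 8 that were highest in MOL, apart from NFOL in both cases. MOL nuclei held 56.6% of all UMIs of A330072L02Rik and 57.4% of those of A530053G22Rik with Cnp, and 9.89% and 18.1% without. For the other 6 genes MOL held between 0.00609% and 3.79% with Cnp, so that their totals with Cnp were set by other classes, chiefly neurons. Without Cnp, MOL held 23.2% of the UMIs of Adamtsl3 and neurons 57.4%. For the rest of the 6, MOL held at most 0.373% without Cnp.

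**Figure D3:**
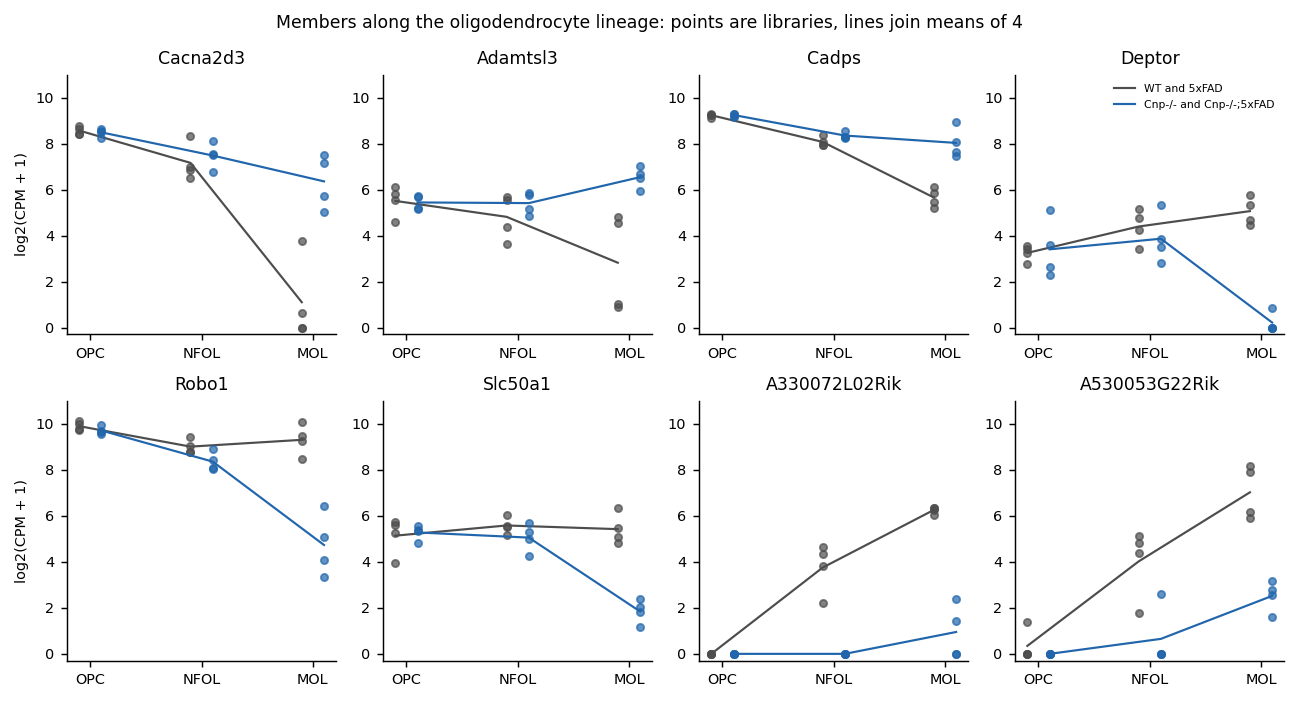
Level of each gene in OPC, NFOL and MOL as log2(CPM + 1). Points are libraries, lines join the means of these log2 values for the 4 libraries with Cnp (grey) and the 4 without (blue). The lines lie close together in OPC for every gene and part in MOL, where Cacna2d3 averages 3.31 CPM with Cnp and 102 CPM without, and Deptor 34.6 and 0.207 CPM.

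In OPC, edgeR called none of the 5 genes tested with Cnp loss, nor any other gene. Their estimates were near 0, with wide intervals for Slc50a1 and Adamtsl3. edgeR called 0 of 9264 genes (0%), with 393 at an unadjusted p below 0.05, and DESeq2 called 1. Cadps was at 557 to 631 CPM with Cnp and 574 to 632 without, a log2 fold change of 0.02 (95% interval -0.16 to 0.21). Cacna2d3 was at 343 to 433 and 302 to 400 CPM (-0.07, interval -0.33 to 0.19). Robo1 was at 843 to 1122 and 757 to 982 CPM (-0.17, interval -0.38 to 0.04), the lower range again without Cnp but overlapping. Slc50a1 gave -0.01 (-0.74 to 0.72) and Adamtsl3 -0.16 (-0.80 to 0.47), with an adjusted p of 0.99995 for each of the 5. Deptor, A330072L02Rik and A530053G22Rik had too few counts to be tested.

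In NFOL, edgeR called 116 of 7248 genes (1.60%) and none of the 6 genes tested. The libraries held 22 to 104 NFOL nuclei each. Robo1 came closest. It was at 520 and 689 CPM in WT and 443 and 441 CPM in 5xFAD, against 267 and 259 CPM in Cnp-/- and 480 and 345 CPM in Cnp-/-;5xFAD. Both Cnp-/- libraries lay below both WT libraries, while Cnp-/-;5xFAD and 5xFAD overlapped. The log2 fold change was -0.62 (95% interval -0.98 to -0.26, adjusted p = 0.0793), and Robo1 passed the threshold where no filter was put on low counts (adjusted p = 0.0311, range over 15 alternatives 0.0311 to 0.998). Cacna2d3 gave 0.30 (-0.33 to 0.92, adjusted p = 0.758) and passed without WT replicate 2, at 0.85 (adjusted p = 0.0450). Cadps gave 0.28 (-0.06 to 0.62), Adamtsl3 0.59 (-0.34 to 1.53), Slc50a1 -0.46 (-1.15 to 0.23) and Deptor -0.52 (-1.73 to 0.70), with adjusted p between 0.498 and 0.795. A330072L02Rik and A530053G22Rik did not pass the filter. A330072L02Rik had 5, 2, 2 and 10 UMIs in NFOL with Cnp and 0 in each library without. With a floor of 3 counts over the 4 libraries in place of 0, that is 5.74-fold lower. The spread of the counts with Cnp is not covered, so this is no lower limit. A530053G22Rik had 30 UMIs against 2. With no filter, both passed in NFOL (adjusted p = 0.00624 and 0.00114), where 344 genes were called in all against 116 in the main analysis. A530053G22Rik could be tested under 8 alternatives and was called in 1 of them. The MOL markers moved with Cnp in NFOL, at 1553 to 3772 CPM with Cnp and 4693 to 5678 CPM without, and their part in these values was not tested.

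Outside the lineage, edgeR called 4 of 21584 genes in neurons (0.0185%), 0 of 11809 in astrocytes (0%, with 641 at an unadjusted p below 0.05 and 7 by DESeq2) and 87 of 9621 in microglia (0.904%), and none of the 8, 6 and 5 of the genes that could be tested there. The tests bear on whether the MOL values recur in cells with the same genotype. In neurons, where 98.9% to 99.2% of the UMIs of Cacna2d3 and Cadps were found, Cadps was at 1067 to 1200 CPM with Cnp and 1144 to 1275 without (0.15, 95% interval -0.03 to 0.33, adjusted p = 0.657). Cacna2d3 gave 0.16 (-0.19 to 0.51) and Robo1 -0.07 (-0.42 to 0.29). Deptor, nearly absent from MOL without Cnp, was at 34.8 to 45.7 CPM in neurons with Cnp and at 37.9 to 53.7 without (0.18, -0.11 to 0.46). Slc50a1 was at 43.9 to 50.8 and 39.9 to 52.7 CPM. For these 5 genes the neuron ranges with and without Cnp overlapped. The share of all neuron genes whose ranges do not overlap was not worked out, so overlap in neurons is only described.

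The mature-stage pair had lower neuron values without Cnp, at very low levels, and was not called in the main analysis. A530053G22Rik was at 1.30, 3.63, 1.98 and 1.25 CPM in WT and 5xFAD and at 0.389, 0.561, 0.346 and 0.228 CPM without Cnp, with no overlap. The log2 fold change was -2.36 (95% interval -3.27 to -1.46), with adjusted p = 0.422. DESeq2 called it (adjusted p = 6.43e-05), the lowest of 15 alternatives, and the highest adjusted p among them was 0.995. A330072L02Rik was at 0.500 to 1.28 CPM with Cnp and 0.174 to 0.457 CPM without (-1.52, -2.30 to -0.75, adjusted p = 0.474). Neuron nuclei also held MOL markers, which summed to 189 to 386 CPM with Cnp and 199.8 to 310 CPM without. These ranges overlapped, and the part of MOL transcripts in the neuron values was not tested. Adamtsl3 was at 4.86 to 5.82 CPM with Cnp and 2.56 to 4.57 CPM without, the opposite order to MOL (-0.53, -0.98 to -0.08, adjusted p = 0.574).

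In microglia, Cacna2d3 was at 2.71, 5.82, 15.0 and 28.4 CPM with Cnp and at 112, 6.24, 57.5 and 21.3 CPM without. The ranges overlapped, and the log2 fold change of 2.48 (95% interval 0.57 to 4.39, adjusted p = 0.273) rested in part on Cnp-/- replicate 1. Without that library it was 0.81, and without Cnp-/- replicate 2 it was 2.92. With no filter on low counts Cacna2d3 passed, at 2.51 (adjusted p = 0.000754). Cadps gave 0.98 (0.17 to 1.79, adjusted p = 0.313). The mature-stage pair did not pass the filter in microglia. A330072L02Rik had 15 UMIs with Cnp and 2 without, at 2.71 to 15.0 and 0 to 1.73 CPM, with no overlap. A530053G22Rik had 16 and 7 UMIs, and its ranges overlapped. MOL markers in microglia summed to 873 to 2079 CPM with Cnp and 2319 to 4822 CPM without, and the 4 endothelial markers to 93.1 to 119 and 143 to 236 CPM, neither with overlap. Their part in these values was not tested. In astrocytes, Adamtsl3 was at 15.3, 0, 9.66 and 12.8 CPM with Cnp and 13.1, 28.8, 28.1 and 33.1 CPM without (1.40, -0.34 to 3.14, adjusted p = 0.983). It passed only with no filter on low counts (adjusted p = 0.0133). Slc50a1 in astrocytes gave -1.76 (-3.92 to 0.40), with WT replicate 2 at 40.5 CPM and the other libraries at 1.27 to 6.69 CPM, and was -0.46 without that library. Deptor, at 36.8 CPM on average in astrocytes with Cnp, gave 0.06 there (-0.80 to 0.93). In endothelial nuclei, Slc50a1 had its highest class mean, at 110 CPM with Cnp and 135 CPM without.

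**Figure D4:**
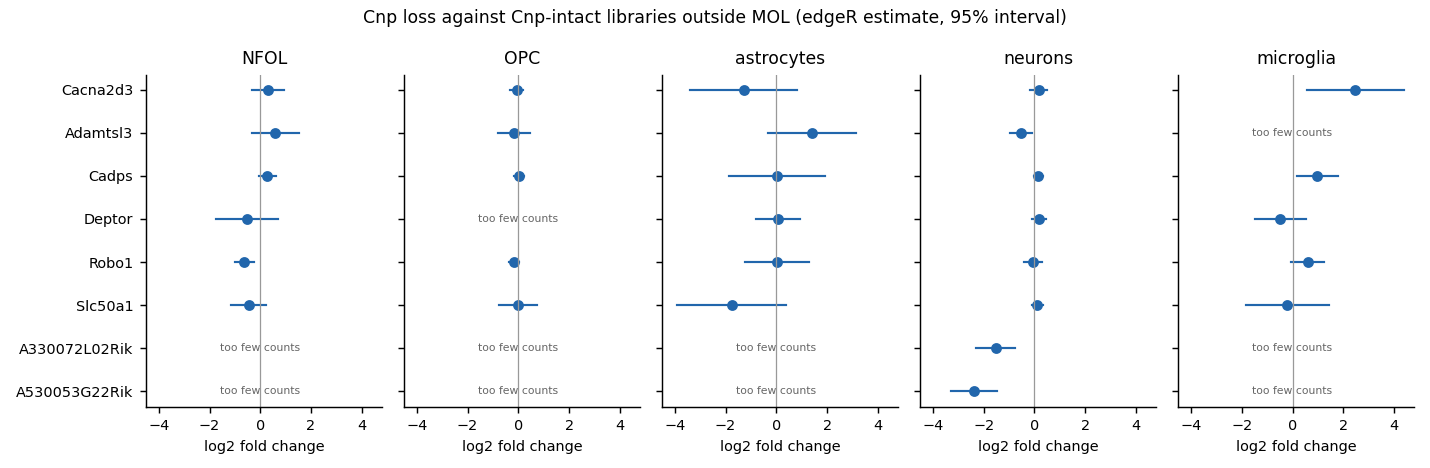
Log2 fold change of Cnp loss against intact Cnp for each gene in 5 classes outside MOL, from edgeR. Points are estimates and lines 95% intervals, and genes that did not pass the filter are marked. The interval of Cadps runs from -0.16 to 0.21 in OPC and that of Slc50a1 from -0.74 to 0.72, and A530053G22Rik in neurons lies at -2.36 with an interval of -3.27 to -1.46.

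The 5xFAD transgenes gave no call among the 8 in MOL, where no gene at all was called in the main analysis. This comparison was not the one used to select the genes, but it rests on the same MOL values. How far the selection shaped it was not tested. edgeR called 0 of 8761 genes (0%), with 326 at an unadjusted p below 0.05, and DESeq2 called 12. Adamtsl3 had the largest estimate of the 8, a log2 fold change of 2.25 averaged over both Cnp genotypes (95% interval 1.32 to 3.18, adjusted p = 0.9999). It was called with no filter on low counts (adjusted p = 0.000791), and not by DESeq2 (adjusted p = 0.0567), and the adjusted p reached 1 over 13 alternatives. The libraries with Cnp carried this difference, at 0.863 and 1.06 CPM in WT against 26.6 and 22.4 CPM in 5xFAD, while Cnp-/- and Cnp-/-;5xFAD overlapped. Cadps gave 0.14 (-0.36 to 0.64) and Robo1 0.17 (-1.14 to 1.49).

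The difference in the Cnp contrast between the 5xFAD and WT backgrounds is made of the values used to select the genes, so for the 8 genes it is given as a description. Over the whole table, edgeR called 0 of 8761 genes (0%) for this interaction, with 299 at an unadjusted p below 0.05, and DESeq2 called 11. Cadps averaged 62.4 CPM in WT and 187 in Cnp-/-, and 39.3 CPM in 5xFAD and 378 in Cnp-/-;5xFAD. Cacna2d3 averaged 6.34 and 41.4 CPM, and 0.277 and 162 CPM, in the same pairs. The difference between the log2 fold changes, 5xFAD background minus WT background, was 5.64 for Cacna2d3, 1.69 for Cadps and -4.54 for Adamtsl3. That of Cacna2d3 turned to -0.22 without WT replicate 2, which held 12 of its 13 UMIs with Cnp, and that of Robo1 (1.71) turned to -0.65 without Cnp-/-;5xFAD replicate 1.

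Neighbours on the chromosome were mostly silent in MOL. Sh3gl3, next to Adamtsl3 at lower coordinates, was at 152.2 to 218 CPM with Cnp and 231 to 288 without (log2 fold change 0.53, SE 0.16, adjusted p = 0.211). The non-coding 8030451O07Rik, next to Robo1, was at 21.3 to 34.9 and 2.05 to 12.2 CPM (-1.69, SE 0.60, adjusted p = 0.297), the same direction as Robo1 and without overlap. Efna1, 1163 bases from Slc50a1, was at 13.7 to 24.6 and 12.2 to 24.0 CPM (0.29, SE 0.41, adjusted p = 0.834). The antisense transcripts inside Cacna2d3 and Cadps reached at most 7.32 CPM. No neighbour that was tested passed the threshold.

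Among other genes of the same pathways that could be tested in MOL, none passed the threshold. The lists were chosen with earlier results of these data known, and the counts of genes tested leave out the members. Members included, the lists held 16 calcium channel, 10 Slit-Robo, 15 vesicle, 12 mTOR, 23 ADAMTS and 11 sugar transporter genes, and 10 reactive oligodendrocyte genes. Many had too few counts to be tested, so these pathways are covered only in part. Of 5 other calcium channel subunits tested in MOL, none passed the threshold, with a median log2 fold change of -0.47. Cacna1a, a pore-forming subunit, was at 12.1 to 31.7 CPM with Cnp and 1.83 to 7.18 without (-2.03, SE 0.63, adjusted p = 0.238). Cacna2d1, also an alpha2delta subunit, was at 0 to 20.2 CPM with Cnp and 20.5 to 102 without (2.89, SE 0.98, adjusted p = 0.281). Of 3 Slit-Robo genes tested, all of them Srgap genes and none a Slit or another Robo, none passed, with a median of 0.81. Srgap1, a signalling partner of Robo receptors, gave 0.81 (SE 0.15, adjusted p = 0.0670). Of 9 genes of the mTOR complexes and their regulators, to which Deptor belongs, none passed and the median was 0.15. Of 8 ADAMTS and ADAMTS-like genes none passed (median 0.28), nor did either sugar transporter tested (median -1.21) or either vesicle gene (median -0.64). The 10 myelin genes other than Cnp had a median of 0.11, and none passed. In a list of reactive oligodendrocyte genes, 1 of 4 passed: C4b, complement component 4B, which rose from 15.5 to 170 CPM with Cnp to 290.0 to 305 CPM without (2.70, SE 0.18, adjusted p = 0.00291). Over all genes tested in MOL 0.765% passed.

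The genes whose levels were most like each member were found over 63 profiles of a class in a library, as Pearson's r of log2(CPM + 1) among 17093 genes. The profiles share classes and libraries, so r is a description. A330072L02Rik and A530053G22Rik were each the most like the other (r = 0.878). Cadps was most like 5330434G04Rik (0.930) and Snap91 (0.908), a synaptic vesicle coat gene. Cacna2d3 was most like Fam189a1 (0.855) and Robo1 most like Kcnq1ot1 (0.870). Adamtsl3 was most like Masp1 (0.814), a complement protease gene that edgeR also called higher in MOL with Cnp loss (log2 fold change 2.60). Deptor (0.735, with Dhdh) and Slc50a1 (0.769, with Filip1) had lower values.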

How the data were processed

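Single nuclei of 8 libraries, 2 per genotype, were profiled with 10x 3′ chemistry. Per the submitters' notes and the study's methods, reads were aligned with Cell Ranger 6.1.2 to mm10, ambient RNA was removed with CellBender, nuclei with few genes or transcripts and outlying nuclei were removed, and classes were assigned after clustering in Seurat. How intronic reads and doublets were treated is not given in the sources used here. The deposited values are UMI counts per gene and nucleus, and no column of them was left unused. The deposited tables of the microglia subset were not used here.

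Counts were summed per class and library, and expressed as CPM of that sum. Differences were tested with edgeR 4.0.16 (quasi-likelihood, TMM scaling, filterByExpr, 4 genotypes in 1 model, Cnp loss averaged over both backgrounds), with Benjamini-Hochberg adjustment over all genes tested and a threshold of 0.05, in R 4.3.3. The scripts were tested on simulated data. DESeq2 1.42.0, other scaling, no filter, the replicate number as a block, deeper nuclei and leaving out libraries were alternatives. The genes and all lists were chosen with earlier results of these data known. Genes named were the 8 members, Cnp, list genes past the threshold, the nearest annotated genes (GENCODE, GRCm38) and the 3 most alike genes, of which some are printed. List genes named without passing the threshold were chosen after their values were seen. Upstream sequences are from RefSeq. Marker lists cover 8 MOL, 10 neuron and further class markers, and levels between genes were not compared as lengths differ. Summed levels cannot tell fewer positive nuclei from less RNA per nucleus. Shares of nuclei are given too, but where few nuclei hold more than 1 UMI of a gene they cannot tell these apart either.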

Additional observations from a re-analysis of the deposited data

Results flagged for a closer look

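For each of the 8 genes, the 4 MOL libraries with Cnp and the 4 without were searched for 1 library far from the other 3 by Dixon's criterion, 16 groups in all, of which chance marks about 1 in 20. A single library stood apart in 2 of the groups. Cacna2d3 in WT replicate 2 was at 12.7 CPM (12 UMIs), where the other libraries with Cnp were at 0 to 0.555 CPM. Deptor in Cnp-/-;5xFAD replicate 1 was at 0.827 CPM, a single UMI, where the other 3 libraries without Cnp were at 0. With 3 values at 0 any other count meets the criterion, so the rate of 1 in 20 does not apply to Deptor, whose single UMI is below the floor of 3 counts. What set these libraries apart was not tested.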

How the results depend on the processing

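Each gene kept the direction of its MOL change under all 18 alternatives, which the choice of genes fixes in part and is no sign of stability. Of the 8 genes, 2 (Adamtsl3 and Cadps) were called in MOL with the replicate number as a block, 3 with the mean over nuclei, 1 (Adamtsl3) in Cnp-/- against WT alone, 1 (Cadps) on the 5xFAD background alone and 0 to 7 with 1 library left out, and all 8 under the other alternatives. Counts of all called genes moved too. With no filter on low counts they were 544 in MOL (67 in the main analysis), 344 in NFOL (116), 127 in OPC (0), 358 in astrocytes (0), 423 in microglia (87), 37 for 5xFAD (0) and 44 for the interaction (0). With DESeq2 they were 517, 62, 1, 7 and 172 in the same classes, 181 in neurons (4), 12 for 5xFAD and 11 for the interaction. Cnp-/- against WT alone gave 4 in MOL, 8 in NFOL, 7 in neurons and 150 in microglia, and Cnp-/-;5xFAD against 5xFAD alone gave 2, 1, 2 and 0. In MOL, nuclei with at least 1000 UMIs gave 103, MOL and NFOL summed 154 and the mean over nuclei 41. Leaving out 1 library gave 2 (without 5xFAD replicate 2) to 262 (without Cnp-/- replicate 1) in MOL, 15 (without Cnp-/- replicate 1) to 366 (without WT replicate 2) in NFOL, 0 to 3 in OPC (without WT replicate 2), 2 (without 5xFAD replicate 2) to 5 in neurons and 0 (without 5xFAD replicate 1) to 154 (without WT replicate 1) in microglia. The cause was not tested. With the replicate number as a block, counts were 23 in MOL, 43 in NFOL and 29 in microglia. The numbers did not pair the samples: correlations of replicate deviations ran from -0.0861 to 0.160 in MOL and from -0.203 to 0.190 over 6 classes. MOL and NFOL summed brought the log2 fold changes of Cacna2d3 to 1.69, Adamtsl3 to 2.90, Cadps to 1.58, Deptor to -3.10, Robo1 to -2.64 and Slc50a1 to -2.20. Without Cnp-/- replicate 1 that of Slc50a1 was -4.37 and that of A330072L02Rik -7.77, and without Cnp-/-;5xFAD replicate 1 those of Deptor and A330072L02Rik were -8.33 and -7.09. The mean over nuclei gave 7.44 for Cacna2d3, -7.76 for Deptor, -4.52 for Slc50a1 and -6.87 for A330072L02Rik, and MOL nuclei without neuron markers -8.30 for Deptor. Without thinning, the difference in the share of MOL nuclei with a UMI, Cnp loss minus intact Cnp, was 12.6 percentage points for Cacna2d3 (thinned 7.39), 8.94 for Adamtsl3 (5.65), -5.37 for Deptor (-2.87), -44.4 for Robo1 (-30.9), -7.67 for Slc50a1 (-3.81) and -6.94 for A330072L02Rik (-4.00). With 2 libraries per genotype and 22 to 104 NFOL nuclei in a library, the 95% interval in NFOL ran from -0.06 to 0.62 for Cadps and from -1.73 to 0.70 for Deptor.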
